A study of Mus musculus with 6 samples.

Results

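miR-378, miR-193b and miR-365 (mmu-miR-378, mmu-miR-193b and mmu-miR-365 on the array) are microRNAs (miRNAs, short RNAs that repress messenger RNAs) that have been linked to fat cells. They were followed in dorsal skin from C3H/HeJ mice. This inbred strain is prone to spontaneous alopecia areata (AA), an autoimmune hair loss. The members were the probes that carry exactly these 3 unstarred names, out of 707 mouse miRNA probes on the array, and each was printed in 5 spots, so that 15 of 3535 miRNA spots on every array belonged to them. The compared groups were AA (skin with hair loss, 3 arrays) and unaffected controls (normal haired skin, 3 arrays). Both were whole dorsal skin of the same strain, and the labels used here give neither age nor sex nor treatment. The design note speaks of several samples per mouse without tying them to arrays, so arrays may share a mouse, and every p-value reflects the scatter of these arrays alone, in part perhaps technical.

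Dorsal skin holds a layer of fat beneath the dermis that thickens and thins with the hair growth cycle, and below it a thin sheet of skeletal muscle. miR-378 is encoded inside Ppargc1b, the gene of the transcriptional coactivator PGC-1β, and is known for rising as fat cells mature and for acting on mitochondrial metabolism. miR-193b and miR-365 are made from neighbouring hairpins and are known as miRNAs enriched in brown fat, where work on mouse precursor cells tied them to brown fat differentiation. None of these miRNAs is made by fat cells alone, and miR-378 is also abundant in skeletal muscle. Whole skin mixes all of these layers, and a smaller number of fat cells cannot be told apart from less miRNA per cell.

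The sequences below show what the probes could and could not separate. The array's target sequences of miR-193b and miR-365 equal RefSeq's mature miR-193b-3p and miR-365-3p. In each line the seed (bases 2 to 8, the part that pairs with target messenger RNAs) is in capitals, and miR-193, the miR-193b relative that RefSeq names miR-193a-3p, is shown because it has the same seed.
miR-193b: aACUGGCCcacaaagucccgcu
miR-193: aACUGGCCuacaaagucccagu
miR-365: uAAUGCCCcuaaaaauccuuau
Counted from the 5′ end of miR-193b, miR-193 differs by C9U, G20A and C21G, which leaves room for shared signal between these probes. It was the 1 other probe on the array within 3 edits of miR-193b. The nearest other target was 9 edits away for miR-365 and 8 for miR-378, and no other probe had the seed of either. On the GRCm38.p6 build of RefSeq, mature miR-193b lies at chr16:13449570-13449591 on the plus strand, and its hairpin is followed by that of Mir365-1 after 4238 bases. A second pair has the same order on chromosome 11, where 14365 bases separate the hairpins of Mir193a and Mir365-2. Mature miR-365 therefore comes from chr16:13453895-13453916 and from chr11:79726467-79726488, both on the plus strand, within 2 hairpins that are shown with the mature strand in capitals.
Mir365-1: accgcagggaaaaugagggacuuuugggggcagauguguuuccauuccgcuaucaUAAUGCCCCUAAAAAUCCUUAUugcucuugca
Mir365-2: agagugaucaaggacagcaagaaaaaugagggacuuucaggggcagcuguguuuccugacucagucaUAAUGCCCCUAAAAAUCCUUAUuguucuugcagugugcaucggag
The capitals are identical, so the miR-365 signal is a sum over both loci.

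The arrays differed in quality in a way that touched the members. Signals are 1-colour scanner intensities, and detection on an array means a mean raw signal over its spots above the 95th percentile of that array's 145 empty control spots. Between 115 and 157 of the 707 probes were detected per AA array and between 97 and 202 per unaffected array. The probes detected on all arrays stood 1.46 to 3.33 times above the median empty spot in AA and 4.20 to 16.9 times above it in unaffected skin. Signal over background was thus lower on every AA array, and its part in the differences below was not tested. On unaffected replicate 1 the median signal was 168 for miRNA spots and 274 for empty spots. On AA replicate 2 these medians were 399 and 490. Values without each of these arrays in turn are given beside the members. Those without unaffected replicate 1 are also given beside the lists whose counts of lower means or calls they change.

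miR-378 was the member with the most signal over the empty spots. Its raw intensity, the mean of 5 spots, was 529, 1056 and 792 in AA replicates 1 to 3, against 338, 2499 and 881 in unaffected replicates 1 to 3. The AA arrays stood at 2.53, 2.15 and 1.49 times the median empty spot of their array, and the unaffected arrays at 1.23, 14.9 and 4.66 times. All 15 AA spots passed the empty-spot limit. Of the 15 unaffected spots 11 did, and the 4 that failed were all on unaffected replicate 1, the array on which miR-378 was not called detected.

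miR-193b was dimmer and lay close to the empty spots in AA. Its raw intensity was 269, 538 and 563 in AA replicates 1 to 3, against 450.1, 304 and 396 in unaffected replicates 1 to 3. These values were 1.06 to 1.29 times the median empty spot in AA and 1.64 to 2.09 times in unaffected skin. miR-193b was detected on 1 of 3 AA arrays (replicate 1) and on 3 of 3 unaffected arrays, and 7 of 15 AA spots against 15 of 15 unaffected spots exceeded the limit.

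miR-365 was at the level of the empty spots on every AA array. Its raw intensity was 225, 449 and 566 in AA replicates 1 to 3, against 221, 506 and 517 in unaffected replicates 1 to 3, and the raw values of the groups overlapped fully (exact permutation p = 1, two-sided, 3 arrays against 3). The mean spot exceeded 79.3%, 39.3% and 83.4% of the empty spots on AA replicates 1 to 3. It exceeded 1.38% of them on unaffected replicate 1, where miR-365 stood at 0.805 times the median empty spot, and 100% of them on unaffected replicates 2 and 3, at 3.02 and 2.73 times. miR-365 passed the limit on 0 of the 3 AA and 2 of the 3 unaffected arrays and therefore did not enter the fit of detected miRNAs, which took 2 of the 3 members.

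**Figure D1:**
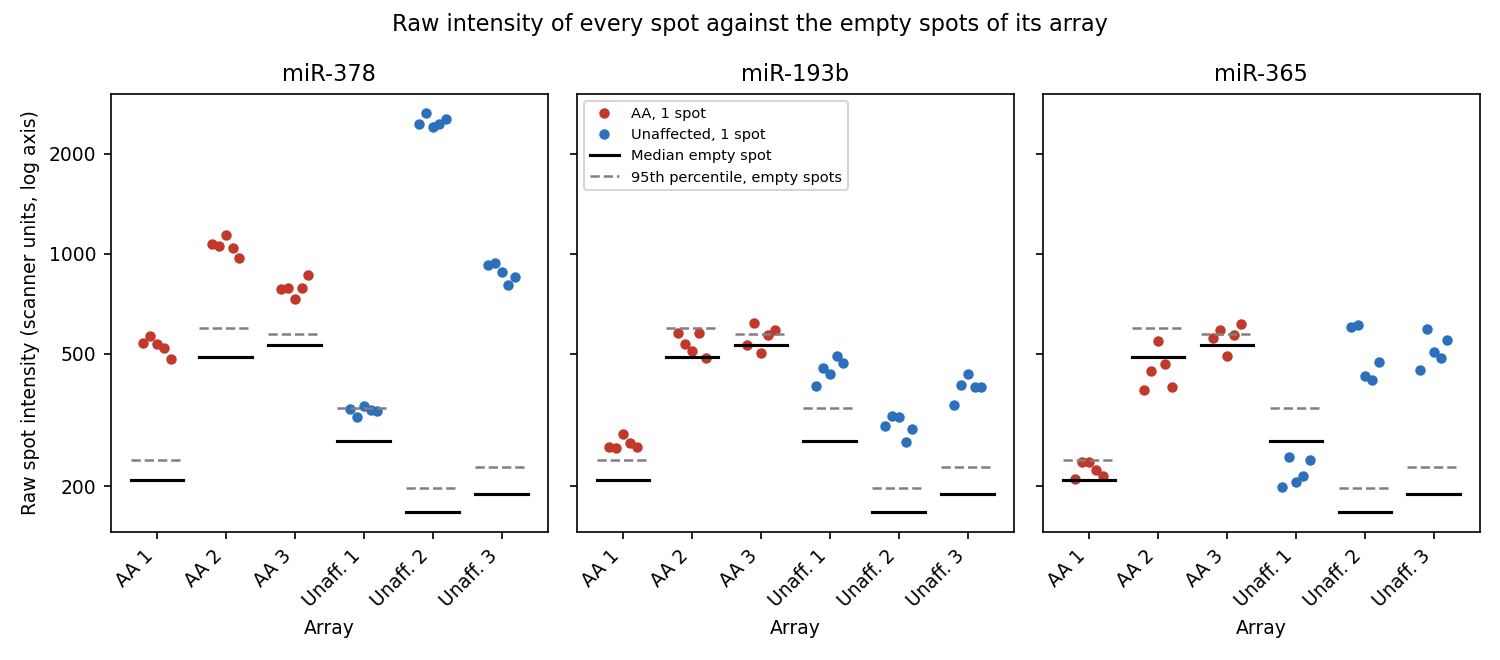
Raw intensity of each of the 5 spots (points; log axis, scanner units) of miR-378, miR-193b and miR-365 on the 3 AA and 3 unaffected arrays, with the median empty spot (black line) and the 95th percentile of the empty spots (grey dashes) of the same array. miR-378 clears the dashes on 5 of 6 arrays, while miR-365 does so on unaffected replicates 2 and 3 and on no AA array by the mean of its spots.

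Raw spots of a probe differed less than its array means did, but raw values include the background of each array. On AA replicate 3, miR-193b stood 32.1 above the median empty spot with a spot SD of 46.3. miR-365 stood 35.1 above it there, with a spot SD of 45.6. The coefficient of variation over the 5 spots was 2.74% to 6.10% for miR-378, 4.05% to 8.22% for miR-193b and 5.60% to 18.5% for miR-365. The highest of these, miR-365 on unaffected replicate 2, came from spots between 417 and 609. For comparison, the median over the detected miRNAs was 5.96% to 8.23% per array. Spot noise was therefore small beside the array-to-array range of miR-378, and spots of 1 array were averaged and counted once.

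After normexp background correction and quantile normalization, the miR-378 level on the log2 scale was higher on average in AA. It was 9.77, 9.17 and 10.10 in AA replicates 1 to 3 and 8.39, 9.85 and 9.11 in unaffected replicates 1 to 3, or 9.68 ± 0.47 against 9.12 ± 0.73 (SD, n = 3 each). Unaffected replicate 2 lay above AA replicates 1 and 2, so the groups overlapped. The difference of 0.56 (SE 0.47), a 1.48-fold higher mean with a 95% interval of 0.722 to 3.02, did not exceed the spread between arrays (limma, Benjamini-Hochberg adjusted p = 0.726 over 157 miRNAs). It was 0.19 without unaffected replicate 1, 0.87 without unaffected replicate 2 and 0.84 without AA replicate 2. Unaffected replicate 1 was below the empty-spot limit and gives only an upper limit, so the 1.48-fold value is not firm.

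The miR-193b level was lower on average in AA. It was 7.97, 7.75 and 7.23 in AA replicates 1 to 3 and 8.81, 7.72 and 7.97 in unaffected replicates 1 to 3, or 7.65 ± 0.38 against 8.17 ± 0.57 (SD, n = 3 each). The groups overlapped, and unaffected replicate 1 again stood apart, here as the highest. The log2 difference was -0.52 (SE 0.42, limma adjusted p = 0.726), and the interval of the AA over unaffected ratio ran from 0.364 to 1.34. AA replicates 2 and 3 were below the empty-spot limit and give only upper limits, so neither this ratio nor the overlap is firm. Without unaffected replicate 1 the difference was -0.19, and without AA replicate 2 it was -0.58.

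The miR-365 level was the 1 among the members without overlap, with the AA arrays below. It was 7.16, 7.24 and 7.30 in AA replicates 1 to 3 and 7.59, 8.20 and 8.20 in unaffected replicates 1 to 3, or 7.23 ± 0.072 against 7.998 ± 0.35 (SD, n = 3 each). The log2 difference of -0.77 had an exact permutation p of 0.1 (two-sided), the smallest that 3 arrays against 3 allow. In a fit over all 707 probes, where 14.7% had groups that did not overlap, its interval was -1.22 to -0.31 and its limma adjusted p was 0.461. That fit called 0 probes at an adjusted p under 0.05, and 49 at an unadjusted p under 0.05. As the AA arrays give only an upper limit, the measured means set no fold. Against the lowest detected signal on each AA array, the mean of the 2 unaffected arrays that detected miR-365 was at least 1.43-fold higher. Those 2 arrays were picked by their own miR-365 signal, so this value describes them and does not bound the group difference. With all 3 unaffected arrays the ratio was 1.24, which is no bound, since unaffected replicate 1 also gives only an upper limit. The 1.43-fold value of those 2 arrays holds for quantile-normalized values alone. With each array scaled to the 75th percentile of probes that every array detected, the difference was 0.41 and the groups overlapped.
The gap also depended on how the background was treated. The raw values did not separate the groups, and unaffected replicate 1, below its own empty spots, ranked above the AA arrays only after normalization. With the median empty spot of each array subtracted instead, the difference was -0.73 and the groups overlapped (exact permutation p = 0.4). Under the reported normexp and quantile setting, the miR-365 difference was -0.95 without unaffected replicate 1. That array had the lowest unaffected value, so leaving it out tends to widen the gap and is no check on it. Without AA replicate 2 the difference was -0.78.

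**Figure D2:**
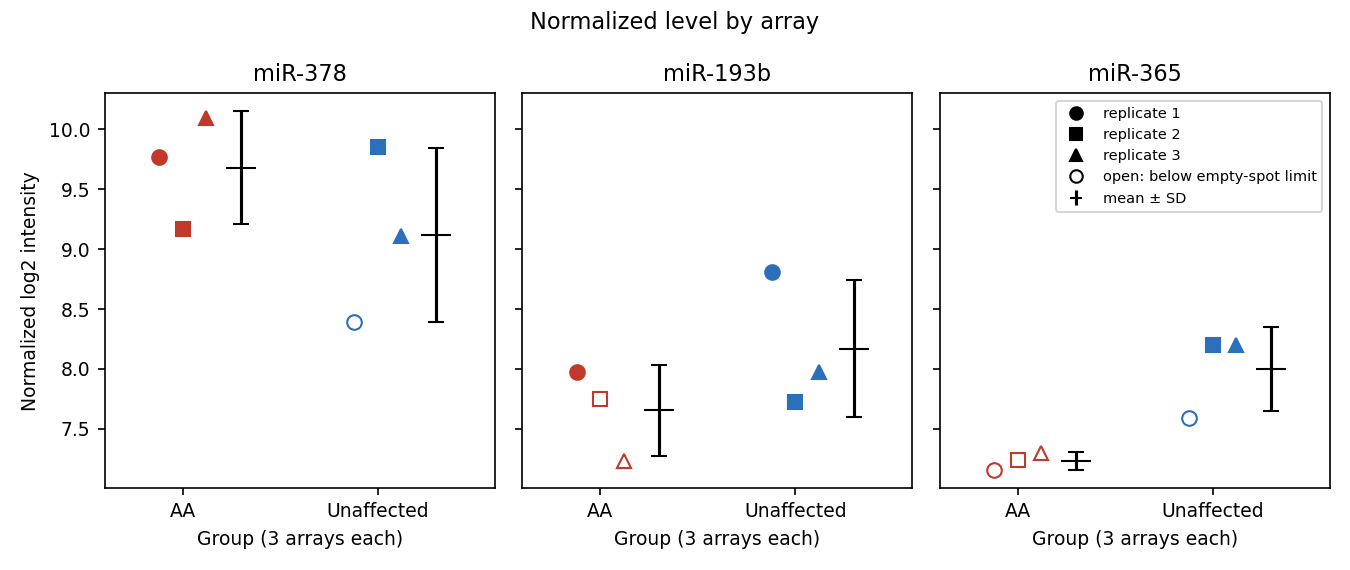
Normalized log2 intensity of the 3 members on each array (AA left, unaffected right; symbols mark replicate numbers, open symbols arrays where the probe was below the empty-spot limit), with the mean and SD over 3 arrays. The groups overlap for miR-378 and miR-193b, while the 3 AA values of miR-365 (7.16 to 7.30) lie below the unaffected ones and are all open symbols.

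In the value table deposited by the authors, which holds their processed intensity on a linear scale, the order of the groups was alike but miR-365 overlapped. For miR-378 it gives 656, 519.9 and 888 for AA replicates 1 to 3, against 224, 972 and 389 for unaffected replicates 1 to 3. For miR-193b it gives 153, 132 and 109 for the AA arrays, against 365.3, 121 and 167 for the unaffected ones. For miR-365 it gives 65.4, 82.9 and 108 for the AA arrays, against 107, 252 and 256 for the unaffected ones, with AA replicate 3 just above unaffected replicate 1.

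Set against all detected miRNAs, the members' differences were moderate. No miRNA was called, as 0% of the 157 tested miRNAs passed an adjusted p of 0.05 (limma; smallest adjusted p 0.402, with 12 at an unadjusted p under 0.05), and accordingly 0 of the 2 members tested. Both members had overlapping groups, as did most tested miRNAs, of which 11.5% had groups that did not overlap. Ordered from the most lowered to the most raised in AA, miR-193b was number 32 and miR-378 number 135 of 157, and the median of all tested miRNAs was -0.039.

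In normalized level, miR-378 and miR-193b ran in nearly opposite order over the arrays. AA replicate 3 had the highest miR-378 (10.10) and the lowest miR-193b (7.23). Unaffected replicate 1 had the lowest miR-378 (8.39) and the highest miR-193b (8.81). Unaffected replicate 2, second highest for miR-378, was second lowest for miR-193b. This order crosses the groups and includes the arrays of weakest signal. miR-193b on AA replicate 3 and miR-378 on unaffected replicate 1 were below the empty-spot limit. The raw intensities did not run in opposite order, since AA replicate 2 was high for both (1056 and 538). miR-365 had its highest levels on unaffected replicates 2 and 3 (8.20 on both), the 2 arrays that detected it, whereas miR-193b was highest on unaffected replicate 1.

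The relatives on the array add little. miR-193, with the seed of miR-193b, had log2 levels of 7.86, 7.10 and 7.44 in AA replicates 1 to 3, against 8.23, 7.79 and 7.34 in unaffected replicates 1 to 3. Its groups overlapped, unaffected replicate 1 was again the highest, and the log2 difference was -0.32 (SE 0.40, limma adjusted p = 0.810). In each group 2 of 3 arrays detected it, and unaffected replicate 1, at 1.16 times its median empty spot, and AA replicate 2 did not. Without unaffected replicate 1 the difference was -0.10. The opposite strand miR-378* passed the limit on 0 of the 3 AA and 1 of the 3 unaffected arrays (replicate 2, where miR-378 was brightest in raw intensity), and the opposite strand miR-193* on none of the 6 arrays.

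The miRNAs with the most similar pattern were found by the root mean square difference of log2 values over the 6 arrays, each miRNA centred on its own mean. For miR-378 they were miR-26a (0.39), miR-143 (0.42) and miR-146a (0.43), where the median over the other tested miRNAs was 0.79. For miR-193b they were miR-183 (0.22), miR-2141 (0.25) and miR-331-3p (0.30), against a median of 0.62. For miR-365 they were miR-30a (0.22), miR-152 (0.29) and miR-10b (0.29), against a median of 0.65. The arrays share their signal level and background across all probes, so these are descriptions only.

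Of 25 other fat-linked miRNAs, listed by their known roles with earlier results of these data in view, 18 were detected on at least 3 arrays. None passed the test (limma, 0 of 18 in each direction, where 0% of all tested miRNAs passed, and 3 at an unadjusted p under 0.05, beside 12 of 157). Of the 18, 4 had higher and 14 lower means in AA, beside 73 higher and 84 lower of the 157, and the median log2 difference was -0.19, beside -0.039. The groups did not overlap for 3 of the 18 (miR-30a, miR-30c and miR-133b), all with AA below, where 7.01% of the tested miRNAs had AA below without overlap. The 18 include miR-133a, miR-133b, miR-203 and miR-143, which are also counted below among markers of other tissue layers, so these lists are not separate. Without unaffected replicate 1, miR-26b was called lower (limma, 1 of 18, where 3.18% of the 157 were called), 6 of the 18 had an unadjusted p under 0.05 (24 of 157), and the median was -0.44, beside 0.026. In that fit limma drew each SE mostly from a variance shared over all miRNAs (37.2 degrees of freedom, against 10.4 with all arrays). Its p-values therefore reflect little of the spread of a single miRNA. With all arrays the shared variance also had the larger weight in each SE, though less so.

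Among 8 miRNAs known to promote fat cell formation, 7 were tested and 4 had lower means in AA (5 without unaffected replicate 1). miR-30c, which favours fat cell differentiation in human precursor cells, measured 9.44 ± 0.28 in AA and 10.83 ± 0.39 in unaffected skin (log2 difference -1.39, limma adjusted p = 0.402, SD, n = 3 each). miR-26b differed by -1.36 (SE 0.52), and by -1.75 (SE 0.50, limma adjusted p = 0.0379) without unaffected replicate 1. miR-30c differed by -1.58 without that array (adjusted p = 0.0523). With all arrays, miR-30a differed by -0.92 (SE 0.38), whereas miR-103, a regulator of insulin sensitivity, differed by 0.31 (SE 0.41). miR-143, whose rise accompanies fat cell maturation, differed by -0.19 (SE 0.51), and miR-204 was not detected on any array.

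All 3 tested miRNAs that restrain fat cell formation had lower means in AA and none passed, with all arrays or without unaffected replicate 1. miR-27a, which represses the fat cell regulator Pparg, had log2 levels of 10.46, 11.06 and 9.80 in AA replicates 1 to 3, against 9.60, 11.79 and 11.70 in unaffected replicates 1 to 3. The groups overlapped, since unaffected replicate 1 was the lowest of all arrays (difference -0.59, SE 0.61). Without that array the difference was -1.33 (SE 0.49, limma adjusted p = 0.121). miR-130a differed by -0.38 (SE 0.39) and miR-27b by -0.28 (SE 0.49). miR-130b, miR-155 and miR-33 were not detected on any array.

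Of 9 miRNAs linked to brown or beige fat, 8 were tested, and 7 of these had lower means in AA (6 without unaffected replicate 1). Those with the smallest p were miR-133b (-0.90, SE 0.46) and miR-133a (-0.76, SE 0.47), which restrain brown fat formation by repressing Prdm16 and are best known as skeletal muscle miRNAs. miR-455, which promotes brown fat, differed by -0.12 (SE 0.50), miR-328 by -0.18 (SE 0.38) and miR-93 by 0.21 (SE 0.42). miR-196a, and the 2 strands of the white fat miRNA miR-335, were not detected on any array.

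**Figure D3:**
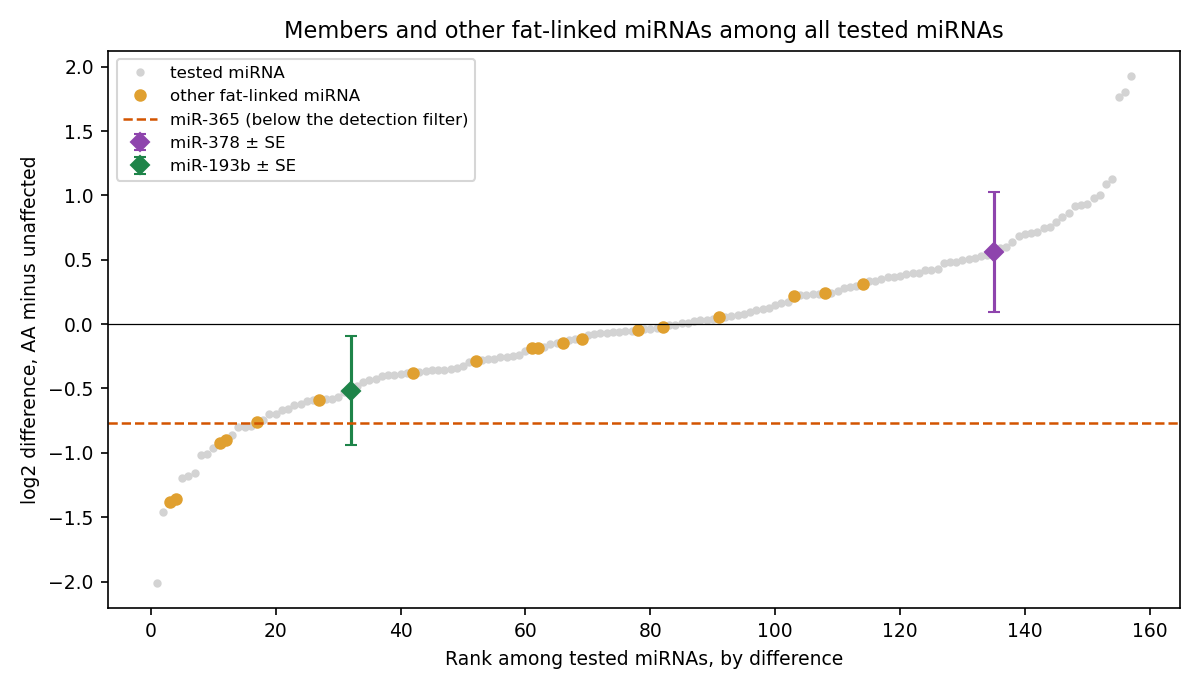
log2 difference (AA minus unaffected, vertical axis) of the 157 tested miRNAs in ascending order (grey), with miR-378 and miR-193b (diamonds, bars are the SE of the limma fit) and the 18 other fat-linked miRNAs (orange); the dashed line marks miR-365, which was not among the tested miRNAs. miR-193b (-0.52) and miR-378 (0.56) lie inside the range of the other miRNAs, which ran from -2.01 to 1.93.

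Markers of the tissue layers beside fat were read with the members. Of 6 skeletal muscle miRNAs, 4 were tested, 0 passed, and all 4 had lower means in AA, as did 84 of all 157. Without unaffected replicate 1, miR-1 was called lower (difference -3.31, SE 0.56, limma adjusted p = 7.49e-05). That SE came mostly from a variance shared over all miRNAs, not from the spread of miR-1 itself. With all arrays, miR-1 measured 9.25, 9.94 and 12.09 in AA replicates 1 to 3, and the difference was -2.01 (SE 1.05, limma adjusted p = 0.588). The linear level summed over all 6 muscle miRNAs was 7097 to 12784 in AA and 7877 to 36014 in unaffected skin. The cardiac miR-208a and slow-fibre miR-499 were not detected. The mean log2 level of the 4 was 10.52, 10.29 and 11.47 in AA replicates 1 to 3 and 10.41, 12.61 and 12.04 in unaffected replicates 1 to 3. miR-378 had its raw maximum on unaffected replicate 2, the array with the most muscle signal, and its normalized maximum on AA replicate 3, which had the highest muscle mean among the AA arrays. Unaffected replicate 3, with the second highest muscle mean of all arrays, had the second lowest normalized miR-378 (9.11). The part of muscle in the miR-378 values was not tested. The 5 fibroblast and smooth muscle miRNAs, all tested, summed to 6033 to 10526 in AA and 6977 to 8766 in unaffected skin, and the liver miRNA miR-122, foreign to skin, was not detected on any array. All 7 keratinocyte miRNAs were tested and 6 had lower means in AA (median -0.39). Of 5 lymphocyte miRNAs, 2 were tested and both had higher means (median 0.46), while both tested red cell miRNAs of 3 had lower means (median -0.42). Without unaffected replicate 1, 1 of these red cell miRNAs was higher and 1 lower (median -0.12). The 1 myeloid miRNA differed by -0.52, and the 1 tested endothelial miRNA of 2 by -1.01 (-0.70 and -1.59 without unaffected replicate 1). Outside the muscle list, none of these miRNAs passed (limma), with or without unaffected replicate 1, and their part in the members' values was not tested.

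Scaling changed the signs of the members' differences. Without normalization between arrays the median of all tested miRNAs was -0.84, and the differences were -0.66 for miR-378, -0.68 for miR-193b and -0.96 for miR-365. With each array scaled to the 75th percentile of probes that every array detected, the median was 0.53, and they were 0.71, 0.69 and 0.41. Relative to the median of each setting, miR-378 was higher in AA in 18 of 18 alternatives and miR-365 lower in 18 of 18. These are not 18 separate checks. The changed variance model and the replicate block leave the difference and the median as reported, and dropping the filter leaves the difference. Under the settings without normalization and with either percentile scaling, which shift all probes of an array alike, the values relative to the median were 0.18 for miR-378 and -0.11 for miR-365, against 0.60 and -0.73 under the reported setting. miR-193b was lower than the median in 15 of 18 and higher, by 0.16, without normalization and under both percentile scalings.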

How the data were processed

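Whole dorsal skin RNA was poly(A)-tailed, tagged for Cy3 and hybridised to µParaflo microfluidic chips, per the labels' protocols. The raw spot intensity deposited by the authors is neither background-subtracted nor normalized, per the file headers. A table of processed intensity, also deposited by the authors, covers 755 probes on a linear scale; how it was background-corrected and scaled is not stated here.

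With limma 3.58.1 under R 4.3.3, normexp (offset 50) was applied to every spot. The 5 spots of a probe were averaged as log2 values and quantile-normalized over 707 miRNA probes. The 157 miRNAs detected on at least 3 of 6 arrays were tested with limma (two-sided, Benjamini-Hochberg, threshold 0.05). Only this limma step was tried on simulated data, which did not cover background correction or normalization. The number of arrays limits the precision, and the offset shrinks differences of dim probes. The 18 alternatives changed background, scaling, filter, spot summary, source, GC trend, variance model or block, or left out 1 array.

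The members and lists were chosen with earlier results of these data known. Named were the members, their other strands and seed relatives, the fat-linked list (at most 4 tested examples per group by smallest p, besides miRNAs not detected, with miR-455 and miR-143 added as known fat miRNAs after their values were seen) and 3 miRNAs of most similar pattern per member. The sequence of miR-378 is not reported here. Sequences and positions are RefSeq's (GRCm38.p6); the array files name no build.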

Additional observations from a re-analysis of the deposited data

How the results depend on the processing

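Over 18 alternatives, limma adjusted p ran from 0.387 to 0.949 for miR-378 and from 0.199 to 0.949 for miR-193b. miR-365 had one in 3 of them (0.461 to 0.538), and the other 15 gave an exact permutation p, which cannot go below 0.1 here. The miR-378 difference (0.56) reversed to -0.66 without normalization between arrays and to -0.76 with scaling to the 75th percentile of all miRNA probes, where the median of all tested miRNAs was -0.95. With scaling to the 75th percentile of probes that every array detected (median 0.53), miR-193b (-0.52) reversed to 0.69 and miR-365 (-0.77) to 0.41. The 4 higher and 8 lower miRNAs at an unadjusted p under 0.05 became 30 and 2 under that scaling, 0 and 62 under the one over all miRNA probes, and 0 and 38 without normalization. Leaving out 1 array moved miR-378 between 0.19 and 0.87, miR-193b between -0.72 and -0.19 and miR-365 between -0.95 and -0.58, with unaffected replicate 1 giving the values nearest 0 for miR-378 and miR-193b and unaffected replicate 2 for miR-365. Calls over all miRNAs ranged from 0 to 2 higher and from 0 to 3 lower, with neither tested member among them. They arose without unaffected replicate 1, with miR-1 (-3.31), miR-26b (-1.75) and miR-30b (-1.69) lower and miR-1937a (2.81) and miR-1937b (3.01) higher, and without unaffected replicate 2, with miR-2861 (2.97) and miR-705 (2.00) higher. Those outside the lists are named after their values were seen, and the lists were recounted without unaffected replicate 1 after the data were seen. The replicate numbers are not stated to pair mice, and deviations of same-numbered arrays correlated at 0.14, -0.10 and -0.12. With the replicate block, 0 miRNAs were called, and the adjusted p was 0.767 for miR-378 (difference 0.56) and miR-193b (-0.52), and 0.508 for miR-365 (-0.77, fit over all probes). No member was detected on all 6 arrays, so the filter on such probes gave no value. The cause of the reversals was not tested. For miR-365 in AA, miR-193b on AA replicates 2 and 3, and miR-378 and miR-365 on unaffected replicate 1, signal over the empty spots limits the measurement to an upper bound.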
